A study of Mus musculus with 10 samples.

Results

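The 10 genes described here encode Wnt ligands: Wnt2, Wnt4, Wnt5a, Wnt5b, Wnt6, Wnt7b, Wnt9a, Wnt10a, Wnt11 and Wnt16. They were listed by name, and transcripts were assigned to them by position on mouse genome build mm10. All 10 were found among the 24743 genes of the table, which also holds the other 9 mouse Wnt ligands. Their RNA was measured by RNA-seq in cell populations sorted by surface protein from prostates of C57BL/6 mice that were 8 to 12 weeks old. Stromal cells, gated Lin-/CD24-/CD49f-, gave 2 libraries. Basal cells, gated Lin-/CD24low/CD49fhigh, gave 2 libraries. Luminal cells, gated Lin-/CD24high/CD49flow, were split by Sca-1 into Sca-1+ luminal cells with 3 libraries and Sca-1- luminal cells with 3 libraries. Lin stands for lineage markers whose bearers were gated out, CD24 is the product of Cd24a, CD49f is integrin alpha 6 (Itga6) and Sca-1 is the product of Ly6a. The labels name no allele, transgene or treatment in any group. Separate animals are not stated as the source of libraries of the same group, so p-values measure the spread between these libraries, which may be technical.

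Wnt ligands are secreted, lipid-modified glycoproteins that act over short distances on Frizzled receptors of neighbouring cells. Some of them mainly engage LRP5 or LRP6 together with Frizzled, which stabilises beta-catenin and switches on genes through TCF/LEF factors, while others mainly act through Ror2, Ryk and planar cell polarity proteins without beta-catenin. In the prostate, Wnt signals pass between stroma and epithelium during bud outgrowth and branching, and they influence adult basal and luminal progenitor cells.

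The genes have separate positions on mm10, except that Wnt6 (chromosome 1, 74771892 to 74785319) and Wnt10a (chromosome 1, 74792019 to 74804175) are neighbours with 6699 bases between them. Promoter sequences are shown for 3 ligands, Wnt11 and Wnt2, the most abundant ligands of the stromal libraries, and Wnt4, which was highest in the Sca-1+ luminal libraries. Each is the 250 bases before an annotated start, 5′ to 3′ on the strand of the gene, from RefSeq on GRCm38.p6, the assembly of mm10. Capitals mark matches on either strand to the core of TCF/LEF sites, with the letters CTTTGA, to the GC box, with the letters GGGCGG, or to the TATA box, with the letters TATAAA. Adjoining matches run together. Wnt11 has 2 annotated starts, at chr7:98834862-98835111 and chr7:98838595-98838844 on the plus strand. Wnt2 lies on the minus strand, with its promoter at chr6:18030446-18030695. The Wnt4 promoter is at chr4:137277385-137277634 on the plus strand.
Wnt11, first start: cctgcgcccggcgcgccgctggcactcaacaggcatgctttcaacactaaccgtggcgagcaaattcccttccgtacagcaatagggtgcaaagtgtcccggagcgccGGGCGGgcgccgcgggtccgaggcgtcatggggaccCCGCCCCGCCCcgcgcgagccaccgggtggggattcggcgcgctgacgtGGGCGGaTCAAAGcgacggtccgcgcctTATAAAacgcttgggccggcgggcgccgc
Wnt11, second start: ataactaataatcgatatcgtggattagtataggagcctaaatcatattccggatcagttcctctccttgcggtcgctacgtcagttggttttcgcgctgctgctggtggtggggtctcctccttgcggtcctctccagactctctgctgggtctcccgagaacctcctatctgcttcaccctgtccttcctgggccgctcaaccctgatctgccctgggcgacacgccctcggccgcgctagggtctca
Wnt2: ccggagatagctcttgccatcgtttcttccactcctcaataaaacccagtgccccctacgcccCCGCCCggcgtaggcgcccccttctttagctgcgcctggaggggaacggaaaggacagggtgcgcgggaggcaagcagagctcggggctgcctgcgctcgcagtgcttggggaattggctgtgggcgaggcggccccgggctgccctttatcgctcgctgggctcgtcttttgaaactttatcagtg
Wnt4: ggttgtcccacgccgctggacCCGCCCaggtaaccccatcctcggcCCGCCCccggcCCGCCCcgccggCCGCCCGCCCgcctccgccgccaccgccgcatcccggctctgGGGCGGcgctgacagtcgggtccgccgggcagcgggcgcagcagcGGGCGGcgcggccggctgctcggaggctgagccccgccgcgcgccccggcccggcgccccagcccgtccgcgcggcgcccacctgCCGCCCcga
The first Wnt11 promoter holds all 3 motifs, and the second, 56.8% G and C, holds none of them. The Wnt2 promoter is 63.6% G and C and the Wnt4 promoter 85.2%, and both hold GC boxes only. RefSeq promoters were matched for 7 of the 10 ligands, with 10 promoters in all. GC boxes stood in 7 of these 10 promoters, against 32.7% of all 32851 promoters of the same length. The TCF/LEF core stood in 2 of the 10, at Wnt11 and Wnt5b, against 13.8% of all promoters, and the TATA box in 1 of the 10, against 12.4%. A match describes the letters of the window and is not a measured binding site.

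Values are FPKM, fragments scaled to transcript length and to the mapped fragments of the library, as estimated by the authors per transcript and summed here per gene. Because FPKM is scaled by length, levels of different ligands can be set side by side. Each library held an estimated 20.3 to 27.2 M (mega) mapped fragments, and 9855 to 11367 genes reached 1 FPKM. Itga6, Cd24a and Ly6a followed the gates between groups in most respects: Itga6 was highest in basal libraries (131 ± 12.6 FPKM, SD, n = 2), and Ly6a averaged 1365 ± 840 FPKM in Sca-1+ luminal libraries and 52.3 ± 31.5 FPKM in Sca-1- luminal libraries (SD, n = 3 each). Ly6a was not particular to the Sca-1+ luminal gate: it was at 1290 and 1930 FPKM in stromal and at 421 and 473 FPKM in basal libraries. Against the gate, Cd24a was at 197 FPKM in Sca-1+ luminal replicate 1, below both basal libraries (226 and 199 FPKM). The summed FPKM of 6 basal markers was 2733 to 2760 in basal libraries and at most 189 elsewhere. The sum of 6 luminal markers was 25981 to 43956 in Sca-1- luminal, 4188 to 8345 in Sca-1+ luminal, 2787 to 4195 in basal and 535 to 1790 in stromal libraries. The Sca-1+ luminal libraries stood apart from each other: the sum of 7 fibroblast markers (Col1a1, Col1a2, Col3a1, Dcn, Lum, Pdgfra, Pdgfrb) was 4757, 2331 and 331 FPKM in replicates 1, 2 and 3, against 6803 and 5028 FPKM in stromal, 683 and 494 FPKM in basal and 75.4 to 134 FPKM in Sca-1- luminal libraries. None of the 7 was listed at 0 in all libraries of any group. Only Dcn put the sum of basal libraries above that of Sca-1+ luminal replicate 3. In basal libraries against that replicate alone, Dcn was higher (difference of log2(FPKM + 1) 1.23). The other markers were lower, from -0.70 for Pdgfra to -2.42 for Lum. Other sums stayed lower in every library, at 23.3 to 351 FPKM for 5 smooth muscle genes, 4.64 to 29.6 for 5 endothelial, 1.39 to 16.3 for 6 leukocyte, 0.916 to 12.5 for 4 glia and nerve and 0.525 to 3.83 for 3 neuroendocrine genes. In Sca-1+ luminal replicates 1, 2 and 3 the smooth muscle sum was 239, 351 and 23.3 FPKM, against 143 and 281 FPKM in stromal libraries. The endothelial sum was 29.6, 19.9 and 4.84 FPKM in these replicates, against 14.2 and 10.8 FPKM in stromal libraries. Calls of ligands and counts of pathway lists that involve Sca-1+ luminal cells are therefore followed by their outcome with replicate 3 as the only library of that group, except where such a call held in every other setting tried. In that fit the lone library is assumed to vary like those of the other groups. In bulk RNA, a smaller share of producing cells and less RNA per producing cell cannot be told apart.

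The summed level of all 19 Wnt ligands was high in stromal and Sca-1+ luminal libraries and low in Sca-1- luminal libraries. It was 108 and 127 FPKM in stromal, 38.6 and 28.9 FPKM in basal, 113, 74.1 and 93.7 FPKM in Sca-1+ luminal and 13.2, 9.87 and 15.4 FPKM in Sca-1- luminal libraries. Ligands at 1 FPKM or more numbered 10 and 9 in stromal, 5 and 5 in basal, 9, 9 and 8 in Sca-1+ luminal and 2, 2 and 4 in Sca-1- luminal libraries. The make-up differed by gate. Wnt11 and Wnt2 led in stromal libraries, with 41.2% and 33.1% of the sum for Wnt11 and 33.9% and 43.3% for Wnt2. Basal libraries were led by Wnt7b (39.1% and 42.3%), followed by Wnt11 (31.6% and 27.1%). Wnt7b also led in Sca-1- luminal replicates 1 and 2 (57.1% and 52.8%), where Wnt4 followed (22.4% and 27.9%), and in replicate 3 Wnt4 led with 39.5% before Wnt7b with 32%. The Sca-1+ luminal libraries did not share a leading ligand. Wnt11 led in replicate 1 with 48.2% and in replicate 2 with 34.6%, while Wnt7b led in replicate 3 with 59.4%, followed by Wnt4 with 30.1%.

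**Figure D1:**
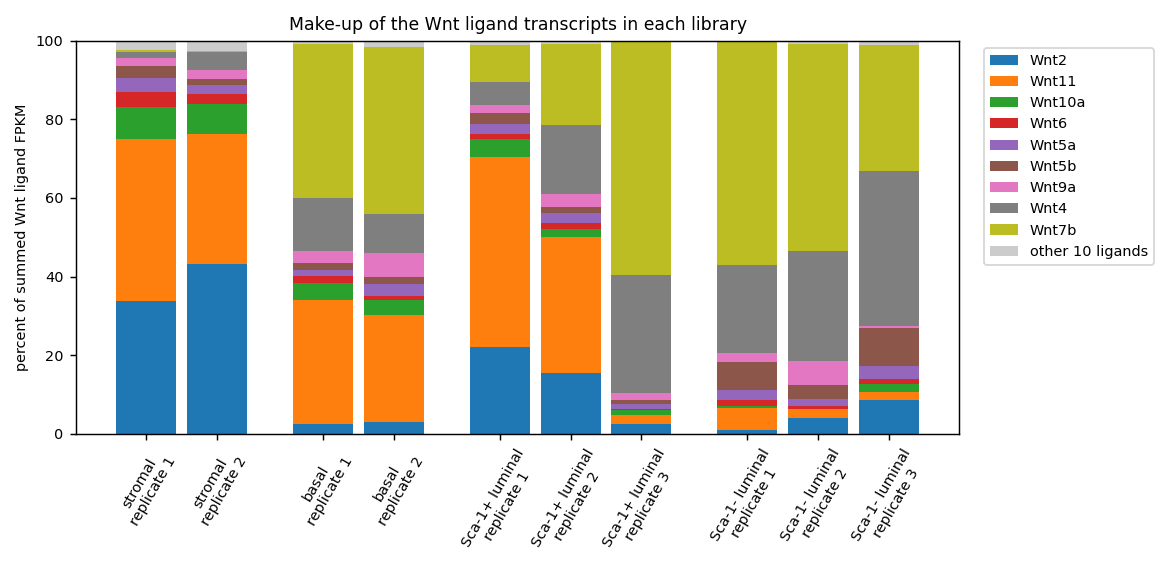
Stacked bars give the percent of the summed FPKM of the 19 Wnt ligands that each ligand took in each of the 10 libraries, with stromal, basal, Sca-1+ luminal and Sca-1- luminal libraries from left to right and 10 low ligands, Wnt16 among them, in 1 pale segment. Wnt2 and Wnt11 fill most of both stromal bars, and Wnt7b takes 59.4% of Sca-1+ luminal replicate 3 but 9.23% of replicate 1.

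Differences were tested with limma on log2(FPKM + 1) over the 12513 genes that reached 1 FPKM in 2 libraries or more, and p-values were adjusted by Benjamini-Hochberg (BH) over these genes in each of 6 comparisons. This scale understates the change of low genes. A gene counts as called at an adjusted p under 0.05. Of the 10 ligands, 9 passed the filter and Wnt16 did not. The 6 comparisons reuse the same 4 groups, so they are not independent of each other.

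Among ligands that mainly act through beta-catenin, Wnt2, a signal of lung mesenchyme during development, was a stromal transcript that also appeared in the Sca-1+ luminal gate. Wnt2 (chromosome 6, 17988940 to 18030445) stood at 36.5 and 55.2 FPKM in stromal libraries, 0.968 and 0.905 FPKM in basal libraries, 25.1, 11.4 and 2.48 FPKM in Sca-1+ luminal libraries and 0.125, 0.394 and 1.34 FPKM in Sca-1- luminal libraries. Both stromal libraries lay above all others, and the Sca-1+ luminal libraries lay above all basal and Sca-1- luminal ones. About 1713 and 2375 fragments stood behind the stromal values, against 6, 18 and 59 behind the Sca-1- luminal values. Wnt2 was higher in stromal than in basal libraries (log2 difference 4.57, SE 0.76, limma BH-adjusted p = 0.00332) and higher than in Sca-1- luminal libraries (4.89, SE 0.69, limma BH-adjusted p = 0.000472). It was also higher in Sca-1+ libraries than in Sca-1- luminal libraries (2.76, SE 0.62, limma BH-adjusted p = 0.00957), but with Sca-1+ luminal replicate 3 alone the difference was 1.17 (limma BH-adjusted p = 0.104). In basal libraries it was lower than in Sca-1+ luminal libraries (-2.43, SE 0.69, limma BH-adjusted p = 0.0365). That last call was lost on leaving out any 1 library other than Sca-1+ or Sca-1- luminal replicate 3, with limma BH-adjusted p between 0.0538 and 0.176, and with Sca-1+ luminal replicate 3 alone the difference was -0.84 (limma BH-adjusted p = 0.264). In order of mean, stromal (45.8 FPKM) and Sca-1+ luminal (13 FPKM) did not pass the test against each other (2.14, SE 0.69, limma BH-adjusted p = 0.0715). They did without Sca-1+ luminal replicate 1 (2.80, limma BH-adjusted p = 0.00898) and with replicate 3 alone (3.72, limma BH-adjusted p = 0.000609). Basal (0.937 FPKM) and Sca-1- luminal means (0.62 FPKM) did not pass (limma BH-adjusted p = 0.744).

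The neighbouring genes Wnt6 and Wnt10a had the same order of groups. Wnt10a, a ligand of tooth, hair and sweat gland development, was at 8.8 and 9.5 FPKM in stromal, 1.6 and 1.11 FPKM in basal, 5.09, 1.58 and 1.08 FPKM in Sca-1+ luminal and 0.0454, 0 and 0.294 FPKM in Sca-1- luminal libraries. Wnt6, known from epithelial-mesenchymal signalling in the kidney, was at 4.04 and 3.38 FPKM in stromal, 0.722 and 0.309 FPKM in basal, 1.53, 1.1 and 0.369 FPKM in Sca-1+ luminal and 0.214, 0.0898 and 0.185 FPKM in Sca-1- luminal libraries. For both genes the stromal libraries lay above all others and the Sca-1- luminal libraries below all others, while basal and Sca-1+ luminal values overlapped. The Sca-1- luminal values rest on an estimated 2, 0 and 12 fragments for Wnt10a and 10, 4 and 8 for Wnt6. In stromal against basal libraries both were higher, Wnt10a by 2.11 (SE 0.44, limma BH-adjusted p = 0.00899) and Wnt6 by 1.65 (SE 0.30, limma BH-adjusted p = 0.00515) on the log2 scale. Without basal replicate 2 neither was called (limma BH-adjusted p = 0.0678 for Wnt10a and 0.0519 for Wnt6), and without stromal replicate 2 Wnt10a was not (limma BH-adjusted p = 0.058). Against Sca-1- luminal libraries, stromal libraries were higher by 3.20 for Wnt10a (SE 0.41, limma BH-adjusted p = 0.00028) and by 2.02 for Wnt6 (SE 0.28, limma BH-adjusted p = 0.000408), and both calls held in all 17 other settings tried. These 2 were also the only ones of the 9 tested ligands called higher in stromal libraries than in Sca-1+ luminal libraries, at 1.67 for Wnt10a (SE 0.41, limma BH-adjusted p = 0.0248) and 1.28 for Wnt6 (SE 0.28, limma BH-adjusted p = 0.015). These were lost without stromal replicate 1 (limma BH-adjusted p = 0.133 for Wnt10a and 0.128 for Wnt6) or stromal replicate 2 (0.124 and 0.0675), and for Wnt10a also without Sca-1+ luminal replicate 2 (0.0773). With Sca-1+ luminal replicate 3 alone they were 2.29 for Wnt10a (limma BH-adjusted p = 0.000718) and 1.78 for Wnt6 (0.0015). In Sca-1+ against Sca-1- luminal libraries Wnt10a was higher by 1.53 (SE 0.36, limma BH-adjusted p = 0.0118) and Wnt6 by 0.74 (SE 0.25, limma BH-adjusted p = 0.0438). With Sca-1+ luminal replicate 3 alone the differences were 0.91 for Wnt10a (limma BH-adjusted p = 0.0583) and 0.24 for Wnt6 (0.563), and Wnt6 was lost on leaving out any 1 library other than Sca-1+ luminal replicate 3, with adjusted p between 0.0594 and 0.129. Neither gene was called in basal libraries against Sca-1+ or Sca-1- luminal libraries. For Wnt10a in basal against Sca-1- luminal libraries the difference was 1.08 (SE 0.41, limma BH-adjusted p = 0.0517), and it passed without Sca-1+ luminal replicate 1 (0.00464) or 3 (0.0227).

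Wnt9a, which acts in joint formation, was lowest in the Sca-1- luminal gate. It was at 2.09 and 2.95 FPKM in stromal, 1.15 and 1.74 FPKM in basal, 2.31, 2.47 and 1.57 FPKM in Sca-1+ luminal and 0.283, 0.62 and 0.0974 FPKM in Sca-1- luminal libraries (chromosome 11, 59306930 to 59333552). Every Sca-1- luminal value lay below every value of the other groups, the stromal values lay above the basal ones, and the Sca-1+ luminal values overlapped both. Compared with Sca-1- luminal libraries it was higher in stromal (log2 difference 1.41, SE 0.26, limma BH-adjusted p = 0.00186), in basal (0.88, SE 0.26, limma BH-adjusted p = 0.0204) and in Sca-1+ luminal libraries (1.23, SE 0.23, limma BH-adjusted p = 0.00475). The basal call was lost without basal replicate 2 (limma BH-adjusted p = 0.156) or Sca-1- luminal replicate 1 (0.0541) or 3 (0.0613). With Sca-1+ luminal replicate 3 alone, the Sca-1+ luminal difference was 0.97 (limma BH-adjusted p = 0.07). Neighbours in the order stromal, Sca-1+ luminal and basal did not pass the test (limma BH-adjusted p = 0.683 and 0.361).

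Among ligands that mainly act without beta-catenin, Wnt11, which guides convergent extension movements and kidney branching, was abundant in stromal libraries and ranged widely between the Sca-1+ luminal ones. Wnt11 (chromosome 7, 98835112 to 98854747) was at 44.3 and 42.2 FPKM in stromal, 12.2 and 7.84 FPKM in basal, 54.5, 25.6 and 2.02 FPKM in Sca-1+ luminal and 0.758, 0.223 and 0.309 FPKM in Sca-1- luminal libraries. The Sca-1+ luminal libraries ran from above both stromal libraries to below both basal ones, and the Sca-1- luminal libraries lay below all others. Against Sca-1- luminal libraries Wnt11 was higher in stromal (log2 difference 4.97, SE 0.94, limma BH-adjusted p = 0.00207), basal (2.94, SE 0.94, limma BH-adjusted p = 0.0285) and Sca-1+ luminal libraries (3.54, SE 0.84, limma BH-adjusted p = 0.0121). The basal call was lost without basal replicate 1 (limma BH-adjusted p = 0.145) or 2 (0.0837), or without any 1 Sca-1- luminal library (0.0523 to 0.0712). With Sca-1+ luminal replicate 3 alone, the difference from Sca-1- luminal libraries was 1.10 (limma BH-adjusted p = 0.0657). Stromal and basal libraries did not differ past the threshold (2.03, SE 1.03, limma BH-adjusted p = 0.199), in a fit that takes the spread of the Sca-1+ luminal libraries into its common error. Without Sca-1+ luminal replicate 3 the same difference had a limma BH-adjusted p of 0.00237, and with that replicate alone 0.00118. Stromal against Sca-1+ luminal libraries gave 1.42 (SE 0.94, limma BH-adjusted p = 0.333), and 3.87 (limma BH-adjusted p = 0.000236) with replicate 3 alone. Basal against Sca-1+ luminal libraries changed direction with the libraries used. It was -0.61 (limma BH-adjusted p = 0.675) over all 3, 1.84 (limma BH-adjusted p = 0.0131) with replicate 3 alone and -1.83 (limma BH-adjusted p = 0.00562) without it.

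Wnt11 transcripts from both starts shown above were found. From the first start, whose promoter holds the TATA and GC boxes, transcripts were at 27.9 and 23 FPKM in stromal, 7.3 and 4.58 FPKM in basal and 39, 15.3 and 1.67 FPKM in Sca-1+ luminal libraries. From the second start they were at 16.5 and 19.1 FPKM in stromal, 4.9 and 3.27 FPKM in basal and 15.5, 10.4 and 0.359 FPKM in Sca-1+ luminal libraries. The first start thus gave 62.9% and 54.6% of Wnt11 in stromal, 59.8% and 58.4% in basal and 71.5%, 59.5% and 82.3% in Sca-1+ luminal libraries, so the ranges of stromal and basal libraries overlapped. The split between overlapping transcripts is the authors' estimate and was not tested.

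Wnt5a and Wnt5b are close relatives that signal mainly through Ror2 and related receptors, and Wnt5a restrains bud outgrowth in the developing mouse prostate. Wnt5a (chromosome 14, 28505473 to 28525515) was at 3.8 and 2.74 FPKM in stromal, 0.619 and 0.842 FPKM in basal, 2.79, 1.87 and 1.11 FPKM in Sca-1+ luminal and 0.327, 0.179 and 0.542 FPKM in Sca-1- luminal libraries. Wnt5b (chromosome 6, 119432531 to 119544347) was at 3.36 and 2.07 FPKM in stromal, 0.703 and 0.556 FPKM in basal, 3.33, 1.1 and 1.01 FPKM in Sca-1+ luminal and 0.957, 0.329 and 1.45 FPKM in Sca-1- luminal libraries. Wnt5a in Sca-1+ luminal libraries lay above all basal and Sca-1- luminal values and overlapped the stromal ones, while Wnt5b in Sca-1- luminal libraries overlapped both the basal and the Sca-1+ luminal ones. Wnt5a was higher in stromal than in basal (log2 difference 1.29, SE 0.31, limma BH-adjusted p = 0.0148) and than in Sca-1- luminal libraries (1.66, SE 0.28, limma BH-adjusted p = 0.00112), and higher in Sca-1+ libraries than in Sca-1- luminal libraries (1.08, SE 0.25, limma BH-adjusted p = 0.0106). The first of these was lost without basal replicate 1 (limma BH-adjusted p = 0.0963), basal replicate 2 (0.0663) or stromal replicate 1 (0.0986), and the last was 0.65 (limma BH-adjusted p = 0.142) with Sca-1+ luminal replicate 3 alone. Against Sca-1+ luminal libraries Wnt5a did not pass in stromal (0.57, limma BH-adjusted p = 0.196) or basal libraries (-0.72, limma BH-adjusted p = 0.0983). The stromal difference passed with Sca-1+ luminal replicate 3 alone (1.00, limma BH-adjusted p = 0.0308) and the basal one without it (-0.93, limma BH-adjusted p = 0.0228). Wnt5b was the one tested ligand that passed the threshold in none of the 6 comparisons. Its largest differences were 1.17 (95% interval 0.23 to 2.11, limma BH-adjusted p = 0.0748) for stromal against basal and 0.98 (0.12 to 1.84, limma BH-adjusted p = 0.0546) for stromal against Sca-1- luminal libraries. Both passed without Sca-1+ luminal replicate 1 (limma BH-adjusted p = 0.025 and 0.0182) or replicate 3 (0.0496 and 0.0392), and the second also without Sca-1- luminal replicate 3 (0.0429). The gene Fbxl14 lies inside the span of Wnt5b and was assigned separately.

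Wnt4 and Wnt7b had another order. Wnt4, needed for female reproductive tract and kidney development, can signal with or without beta-catenin. It stood at 1.72 and 5.66 FPKM in stromal, 5.21 and 2.9 FPKM in basal, 6.69, 13 and 28.2 FPKM in Sca-1+ luminal and 2.96, 2.75 and 6.08 FPKM in Sca-1- luminal libraries (chromosome 4, 137277635 to 137299501). The Sca-1+ luminal libraries lay above all others, and the other 3 groups overlapped. Wnt4 was higher in Sca-1+ libraries than in Sca-1- luminal libraries (log2 difference 1.63, SE 0.52, limma BH-adjusted p = 0.0358), and with Sca-1+ luminal replicate 3 alone the difference was 2.63 (limma BH-adjusted p = 0.0177). The call was lost without Sca-1- luminal replicate 1 (limma BH-adjusted p = 0.1) or 2 (0.0992), or Sca-1+ luminal replicate 2 (0.0809) or 3 (0.0711). Stromal libraries (-1.78, SE 0.58, limma BH-adjusted p = 0.0718) and basal libraries (-1.57, SE 0.58, limma BH-adjusted p = 0.0842) did not pass the test against Sca-1+ luminal libraries. Both passed without Sca-1+ luminal replicate 1 (limma BH-adjusted p = 0.0174 for stromal and 0.0298 for basal) and with replicate 3 alone (0.00875 and 0.0242). Basal, Sca-1- luminal and stromal means, at 4.06, 3.93 and 3.69 FPKM, did not pass the test against their neighbours (limma BH-adjusted p = 0.95 and 0.851).

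Wnt7b, an epithelial ligand of lung and kidney that activates beta-catenin in neighbouring cells, was lowest in stromal libraries. Wnt7b (chromosome 15, 85535437 to 85581821) was at 0.347 and 0.585 FPKM in stromal, 15.1 and 12.2 FPKM in basal, 10.4, 15.4 and 55.6 FPKM in Sca-1+ luminal and 7.54, 5.21 and 4.92 FPKM in Sca-1- luminal libraries. Stromal libraries lay below all others and Sca-1- luminal libraries below the other epithelial ones, while basal and Sca-1+ luminal values overlapped. It was lower in stromal than in basal (log2 difference -3.32, SE 0.61, limma BH-adjusted p = 0.0051), Sca-1+ luminal (-3.91, SE 0.56, limma BH-adjusted p = 0.00228) and Sca-1- luminal libraries (-2.22, SE 0.56, limma BH-adjusted p = 0.00828). The first 2 of these held in all 17 other settings, and the third was lost without stromal replicate 1 (limma BH-adjusted p = 0.0585). Wnt7b was higher in Sca-1+ libraries than in Sca-1- luminal libraries (1.69, SE 0.50, limma BH-adjusted p = 0.0274). The difference was 3.06 (limma BH-adjusted p = 0.00114) with Sca-1+ luminal replicate 3 alone and 1.01 (0.0139) without it, and the call was lost without Sca-1- luminal replicate 2 (0.0715) or 3 (0.0837). Basal libraries did not pass the test against Sca-1+ luminal libraries (-0.59, limma BH-adjusted p = 0.476) or Sca-1- luminal libraries (1.10, limma BH-adjusted p = 0.134). Without Sca-1+ luminal replicate 3 the second of these passed (limma BH-adjusted p = 0.00676), and with that replicate alone the first was -1.96 (0.00763). The antisense gene AU022754 overlaps the 5′ end of Wnt7b. The protocol does not state whether strand was kept, so reads of the overlap cannot be told apart.

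Wnt16, which human prostate fibroblasts are known to release after DNA damage, was the lowest of the 10 ligands. It was listed at 0 in both stromal libraries, at 0 and 0.0288 FPKM in basal libraries, at 0.0747, 0.0952 and 0.083 FPKM across Sca-1+ luminal libraries and at 0 in all 3 Sca-1- luminal libraries. All 3 Sca-1+ luminal values lay above the others, but none reached 1 FPKM and the gene was not tested. The lower bound of the authors' confidence interval was 0 in replicates 1 and 3 and 0.00707 FPKM in replicate 2. The value of replicate 2 came from another transcript than those of replicates 1 and 3.

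**Figure D2:**
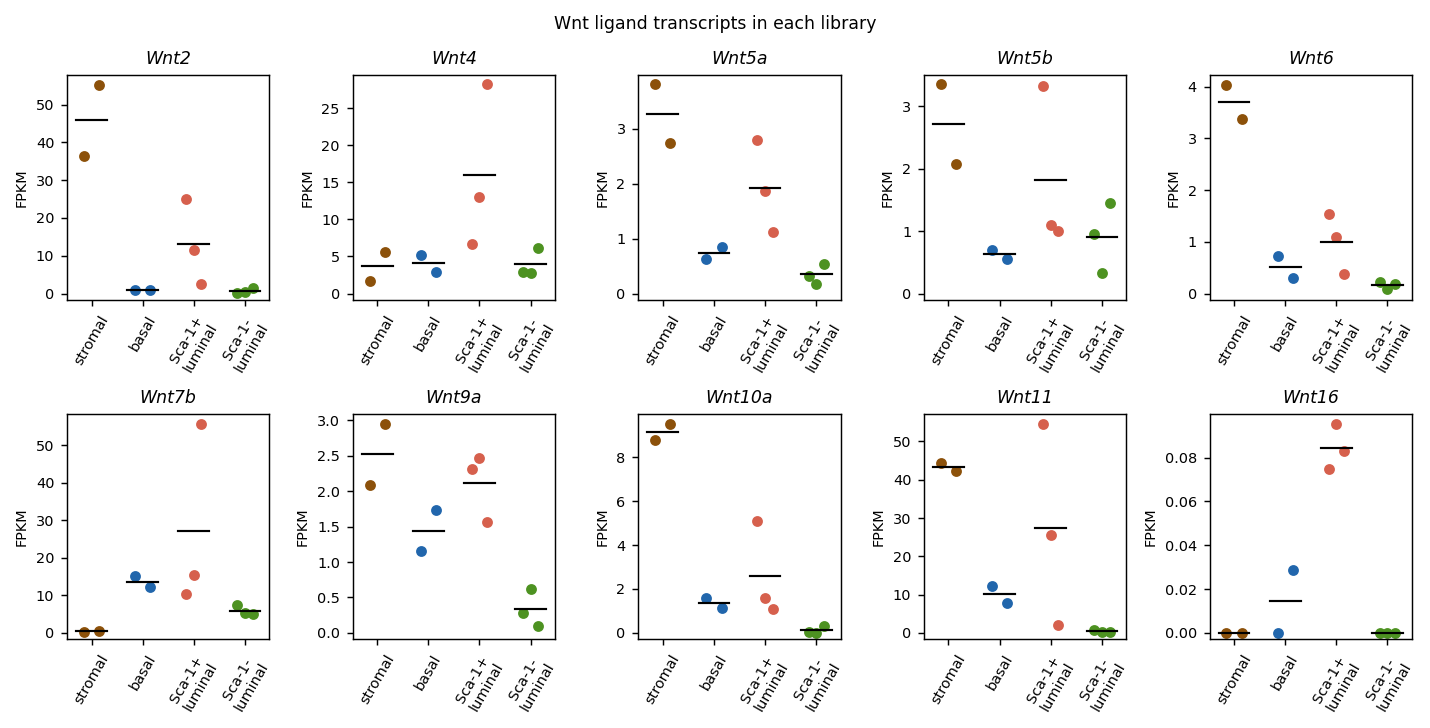
Each panel gives 1 Wnt ligand, each point 1 library and each bar the group mean, in FPKM on a linear axis that differs between panels. Wnt2, Wnt6 and Wnt10a are highest in the stromal libraries, Wnt7b is lowest there, and Wnt4 and Wnt7b reach their top values, 28.2 and 55.6 FPKM, in Sca-1+ luminal replicate 3.

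The calls of the ligands were set beside those of all genes tested. In Sca-1+ against Sca-1- luminal libraries 8 of the 9 tested ligands were higher and none was lower, with Wnt5b not called, while 21.7% of all genes were called higher and 13.4% lower. The median log2 difference was 1.53 over the ligands and 0.19 over all genes. In stromal against Sca-1- luminal libraries 6 ligands (Wnt2, Wnt5a, Wnt6, Wnt9a, Wnt10a, Wnt11) were higher and Wnt7b was lower, against 25.2% and 27.4% of all genes. The median was 1.66 over the ligands and -0.06 over all genes. In stromal against basal libraries 4 ligands (Wnt2, Wnt5a, Wnt6, Wnt10a) were higher and Wnt7b was lower, against 13.5% and 9.13% of all genes, with medians of 1.29 and 0.02. The filter lets a gene pass through the libraries where it is high, so these counts describe the tested ligands only.

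Fewer ligands were called in the other 3 comparisons. In stromal against Sca-1+ luminal libraries 2 ligands (Wnt6, Wnt10a) were higher, against 1.79% of all genes, and Wnt7b was lower, against 11.6%. In basal against Sca-1+ luminal libraries none was higher, against 4.38% of all genes, and Wnt2 was lower, against 15.4%. In basal against Sca-1- luminal libraries 2 ligands (Wnt9a, Wnt11) were higher, against 20.2% of all genes, and none was lower, against 26.1%. The 2 of 9 is close to the share among all genes. Counts for the comparisons with Sca-1+ luminal cells turned on its libraries. With replicate 3 alone, 2 ligands (Wnt4, Wnt7b) were higher in Sca-1+ libraries than in Sca-1- luminal libraries, in place of 8, against 10.3% of all genes. Stromal against Sca-1+ luminal libraries then gave 5 higher and 2 lower, against 14.7% and 16.3%, and basal against Sca-1+ luminal libraries 1 higher and 2 lower, against 4.55% and 11.2%. The count of 8 was also 5 to 7 on leaving out any 1 of the 10 libraries.

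**Figure D3:**
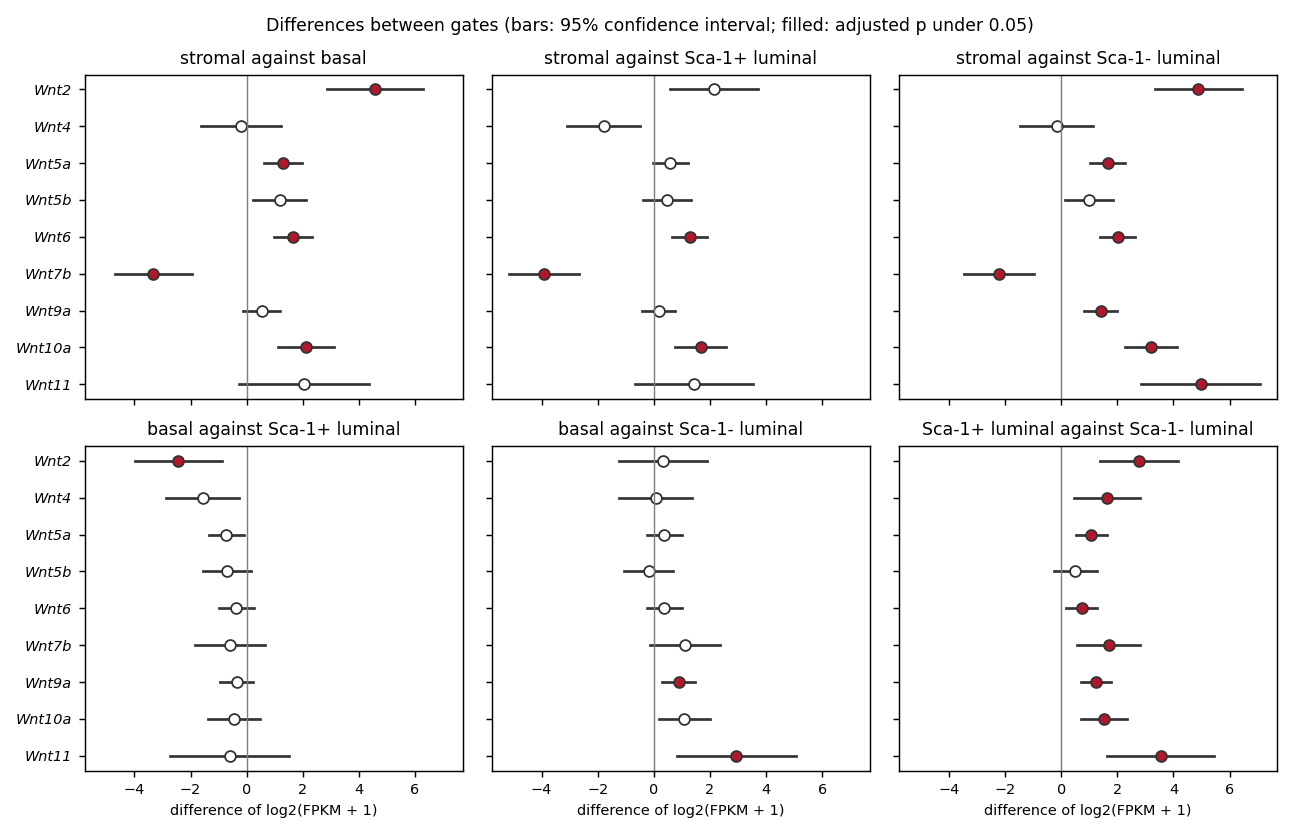
Points give the difference of log2(FPKM + 1) for the 9 tested ligands in each of the 6 comparisons, bars the 95% confidence interval, and filled points a limma BH-adjusted p under 0.05. For Sca-1+ against Sca-1- luminal libraries all 9 points lie right of 0 and 8 are filled, while Wnt7b lies far left of 0 in the 3 stromal panels.

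Within the Sca-1+ luminal gate the ligands did not move together between libraries. Wnt2, Wnt5a, Wnt5b, Wnt6, Wnt10a and Wnt11 were highest in replicate 1 and lowest in replicate 3, as was the fibroblast marker sum of 4757, 2331 and 331 FPKM. Wnt9a was highest in replicate 2 and lowest in replicate 3. Wnt4 and Wnt7b were highest in replicate 3 and lowest in replicate 1, as were Ly6a (677, 1116 and 2301 FPKM in replicates 1, 2 and 3), Cd24a (197, 412 and 1091 FPKM) and the sum of 5 proximal luminal markers, among them Psca and Krt4 (842, 2161 and 5001 FPKM). The fibroblast markers moved with the group differences as well. In Sca-1+ against Sca-1- luminal libraries 7 of 7 were called higher, against 21.7% of all genes. In stromal against Sca-1- luminal libraries 7 of 7 were higher, against 25.2%, and in stromal against basal libraries 6 of 7, against 13.5%. In basal against Sca-1+ luminal libraries 6 of 7 were lower, in basal against Sca-1- luminal libraries 1 of 7 was higher, and in stromal against Sca-1+ luminal libraries none of 7 was called. The part of fibroblast RNA in the levels of Wnt2, Wnt5a, Wnt5b, Wnt6, Wnt9a, Wnt10a and Wnt11 in the Sca-1+ luminal gate was not tested. In the stromal libraries, which hold the highest sums of fibroblast markers, Wnt7b was at 0.347 and 0.585 FPKM and Wnt4 at 1.72 and 5.66 FPKM. The Wnt4 values overlapped those of basal and Sca-1- luminal libraries. Wnt4 and Wnt7b were highest in the Sca-1+ luminal library with the lowest sum, and the part of fibroblast RNA in their levels was not tested either.

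**Figure D4:**
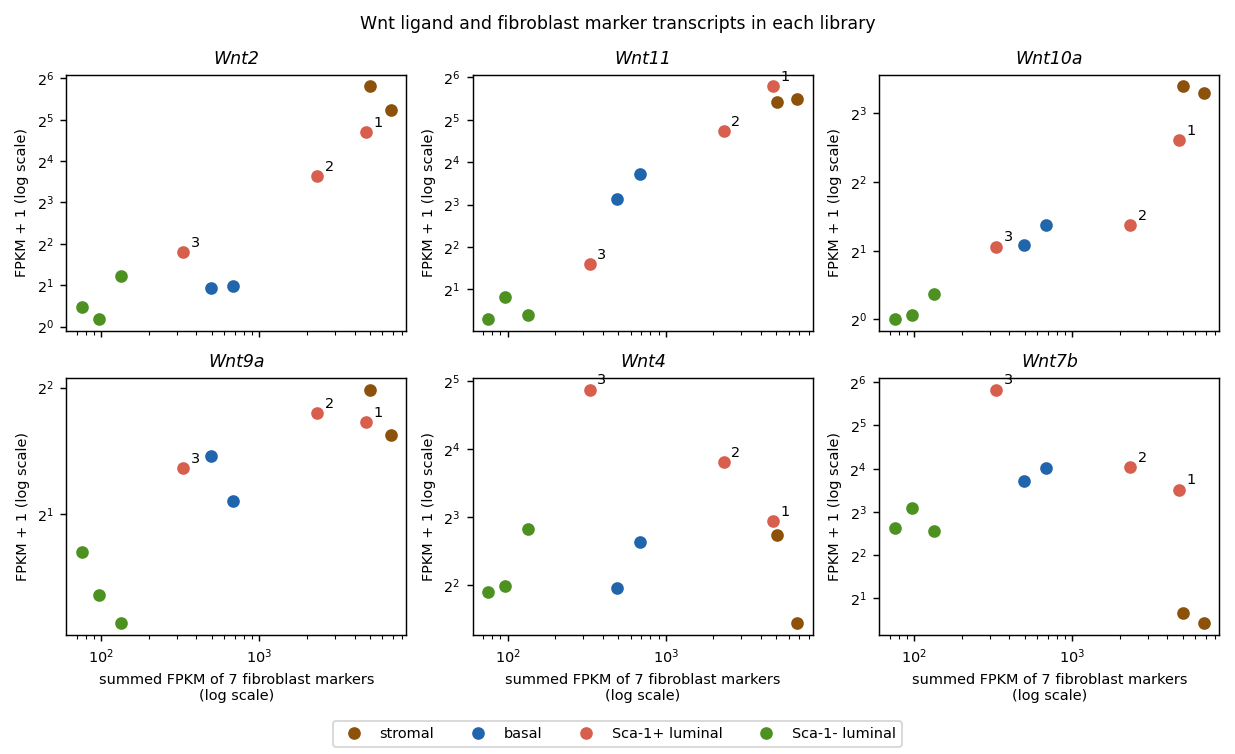
Each point is 1 library, placed by the summed FPKM of 7 fibroblast markers (log axis) and the FPKM + 1 of a ligand (log axis), with the 3 Sca-1+ luminal libraries numbered by replicate. Wnt2, Wnt11 and Wnt10a are low in the libraries of the Sca-1- luminal gate, with marker sums of 75.4 to 134 FPKM, and high in the stromal ones, with sums of 6803 and 5028 FPKM, while Wnt4 and Wnt7b peak in Sca-1+ luminal replicate 3, at a sum of 331 FPKM.

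Likeness of pattern was described by Pearson's r of log2(FPKM + 1) over the 10 libraries, which fall into 4 groups, so r mainly repeats the order of groups. Among the ligands r was 0.96 for Wnt2 and Wnt5a, 0.96 for Wnt6 and Wnt10a, 0.69 for Wnt4 and Wnt7b and -0.65 for Wnt6 and Wnt7b. Among genes that reached 5 FPKM in at least 2 libraries, those most like Wnt2 were Gfra1 (r = 0.998), a receptor for GDNF, Pear1 (0.997) and Lrrn2 (0.996). Those most like Wnt5a were the collagen gene Col3a1, the complement gene C3 and Sgce (0.989 each). Col4a3 (0.994) and Pcdhgc3 (0.989) were among those most like Wnt11. Wnt9a was most like the sphingosine kinase Sphk1 (0.989), Arpc1b (0.983) and Kctd10 (0.98), Wnt10a like 1500009L16Rik (0.979), the hormone gene Sct (0.979) and Thsd7a (0.976), Wnt6 like Zcchc14 (0.986), Pde8a (0.98) and Bcat1 (0.976), and Wnt5b like Ppm1d (0.964), Neo1 (0.96) and Abca8a (0.956). Wnt7b and Wnt4 had other partners, Fbxl5 (0.985), Ubxn2a (0.982) and the phospholipase Plcg2 (0.981) for Wnt7b and Sbspon (0.949), Paqr6 (0.925) and Zfp276 (0.925) for Wnt4.

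The pathway lists that follow were read against the shares of all genes already given: 21.7% higher and 13.4% lower in Sca-1+ against Sca-1- luminal, 25.2% and 27.4% in stromal against Sca-1- luminal, 20.2% and 26.1% in basal against Sca-1- luminal, 13.5% and 9.13% in stromal against basal, 1.79% and 11.6% in stromal against Sca-1+ luminal, and 4.38% and 15.4% in basal against Sca-1+ luminal libraries. For Sca-1+ luminal replicate 3 alone the shares were 10.3% and 6.13% against Sca-1- luminal libraries, 14.7% and 16.3% for stromal against it and 4.55% and 11.2% for basal against it.

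Of 6 genes that load, carry or inactivate Wnt ligands, Porcn, Wls and Vps35 were called in none of the 6 comparisons, and Tmed2, Tmed5 and Notum were. Notum, a secreted enzyme that strips the lipid from Wnt ligands, stood at 25 and 57.5 FPKM in stromal, 5.97 and 14.7 FPKM in basal, 16.9, 14.4 and 1.55 FPKM in Sca-1+ luminal and 0.495, 0.83 and 1.18 FPKM in Sca-1- luminal libraries. The Sca-1- luminal libraries lay below all others, with Sca-1+ luminal replicate 3, the one of that gate with the lowest fibroblast marker sum, nearest to them. Notum was higher than in Sca-1- luminal libraries in stromal (log2 difference 4.42, limma BH-adjusted p = 0.00133), basal (2.53, limma BH-adjusted p = 0.0229) and Sca-1+ luminal libraries (2.30, limma BH-adjusted p = 0.0295), but with Sca-1+ luminal replicate 3 alone the last was 0.49 (limma BH-adjusted p = 0.592). The cargo receptors of the early secretory pathway Tmed2 and Tmed5 went opposite ways: against Sca-1- luminal libraries Tmed2 was lower in stromal (-0.93, limma BH-adjusted p = 0.00888) and basal libraries (-0.83, limma BH-adjusted p = 0.0169), while Tmed5 was higher in stromal (1.09, limma BH-adjusted p = 0.00967), basal (1.73, limma BH-adjusted p = 0.000998) and Sca-1+ luminal libraries (0.73, limma BH-adjusted p = 0.0488). Tmed5 was also higher in basal than in Sca-1+ luminal libraries (1.00, limma BH-adjusted p = 0.0346). With replicate 3 alone, neither Tmed5 difference involving Sca-1+ luminal libraries passed (limma BH-adjusted p = 0.313 and 0.0968).

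Of 19 receptor genes 17 were tested, and in Sca-1+ against Sca-1- luminal libraries 8 were higher and 1 was lower, while with replicate 3 alone 3 were higher and none lower. Fzd1 averaged 102 ± 28.3 FPKM in stromal (SD, n = 2), 14.4 ± 6.04 in basal (n = 2), 42.4 ± 35.7 in Sca-1+ luminal (n = 3) and 2.36 ± 0.841 FPKM in Sca-1- luminal libraries (n = 3), an order like that of Wnt2, and its 3 Sca-1+ luminal values were 78.4, 41.8 and 6.94 FPKM in replicates 1, 2 and 3. Ror2, the receptor of Wnt5a, was at 5.44 and 7.47 FPKM in stromal, 13 and 7.06 FPKM in basal, 6.68, 4.35 and 4.21 FPKM in Sca-1+ luminal and 0.531, 0.212 and 0.631 FPKM in Sca-1- luminal libraries. The first 3 groups did not pass the test against each other (limma BH-adjusted p = 0.0928 to 0.547), and each was higher than Sca-1- luminal libraries, basal libraries by 2.88 (SE 0.32, limma BH-adjusted p = 0.000121) and Sca-1+ luminal replicate 3 alone by 1.85 (limma BH-adjusted p = 0.0155). Fzd6 averaged 0.238 ± 0.0482 FPKM in stromal and 8.6 ± 0.754 FPKM in basal libraries (SD, n = 2 each; -2.95, SE 0.42, limma BH-adjusted p = 0.00175). In stromal libraries 10 receptors were higher and 2 lower than in Sca-1- luminal libraries, 2 were higher and 2 lower than in basal libraries, and none was higher and 1 lower than in Sca-1+ luminal libraries (6 and 2 with replicate 3 alone). In basal libraries 7 were higher and 1 lower than in Sca-1- luminal libraries, and 1 was higher and 1 lower than in Sca-1+ luminal libraries (1 and none with replicate 3 alone).

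Of 19 genes of secreted antagonists and R-spondins 11 were tested, and 8 were higher in stromal libraries than in Sca-1- luminal ones, 6 than in basal and 1 than in Sca-1+ luminal ones, with none lower in the 3 comparisons. Against Sca-1+ luminal replicate 3 alone, stromal libraries had 7 higher and none lower. Wif1, which binds Wnt ligands outside the cell, averaged 442 ± 180 FPKM in stromal and 13.8 ± 3.3 FPKM in basal libraries (SD, n = 2 each; log2 difference 4.86, SE 0.81, limma BH-adjusted p = 0.00342). Sfrp2, a decoy receptor, averaged 65.7 ± 1.64 FPKM in stromal and 1.63 ± 0.313 FPKM in basal libraries (SD, n = 2 each; 4.67, SE 0.50, limma BH-adjusted p = 0.000493). Rspo3, which raises Wnt receptor levels, averaged 30.7 ± 1.32 FPKM in stromal and 0.614 ± 0.218 FPKM in basal libraries (SD, n = 2 each; 4.30, SE 0.87, limma BH-adjusted p = 0.00747). In Sca-1+ against Sca-1- luminal libraries 6 were higher and none lower, in basal against Sca-1- luminal libraries 2 were higher and none lower, and in basal against Sca-1+ luminal libraries 4 were lower and 1 was higher. With replicate 3 alone, 3 were higher and none lower against Sca-1- luminal libraries, and basal libraries had none higher and 2 lower than it.

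Of 18 genes of the pathway inside the cell 16 were tested. In Sca-1+ against Sca-1- luminal libraries 6 were higher and none lower, among them Ctnnb1, which encodes beta-catenin, at 270 ± 160 FPKM in Sca-1+ and 111 ± 20.3 FPKM in Sca-1- luminal libraries (SD, n = 3 each; log2 difference 1.13, SE 0.38, limma BH-adjusted p = 0.044). In stromal against Sca-1- luminal libraries 3 were higher and 2 lower, in stromal against basal 1 and 2, in stromal against Sca-1+ luminal none and 2, in basal against Sca-1- luminal 4 and 1, and in basal against Sca-1+ luminal none and 2. With Sca-1+ luminal replicate 3 alone, 3 were higher and none lower than in Sca-1- luminal libraries (Ctnnb1 2.03, limma BH-adjusted p = 0.0041), and against that library stromal had 1 higher and 4 lower and basal none and 2.

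The 12 genes that beta-catenin signalling is known to raise were called in both directions. In Sca-1+ against Sca-1- luminal libraries 1 was higher and 1 lower, with a median log2 difference of 0.07, against 0.19 over all genes. Ccnd1, cyclin D1, averaged 44.9 ± 21.9 FPKM in Sca-1+ and 8.54 ± 1.76 FPKM in Sca-1- luminal libraries (SD, n = 3 each; 2.14, SE 0.43, limma BH-adjusted p = 0.00563). Sp5, a direct target in many tissues, averaged 1.09 ± 0.263 FPKM in Sca-1+ and 8.79 ± 7.14 FPKM in Sca-1- luminal libraries (SD, n = 3 each; -1.94, SE 0.47, limma BH-adjusted p = 0.0129). With replicate 3 alone Ccnd1 gave 2.78 (limma BH-adjusted p = 0.00571) and Sp5 -1.93 (limma BH-adjusted p = 0.0999). In stromal libraries 2 were higher and 3 lower than in basal libraries, 3 higher and 2 lower than in Sca-1- luminal libraries and none higher and 2 lower than in Sca-1+ luminal libraries (3 and 1 with replicate 3 alone). In basal libraries 2 were higher and 2 lower than in Sca-1- luminal libraries, and 1 was higher and none lower than in Sca-1+ luminal libraries, also with replicate 3 alone.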

How the data were processed

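RNA-seq of 10 libraries of sorted mouse prostate cells was analysed. Per the labels' protocols, total RNA was made into cDNA with random and poly(dT) priming (NuGEN Ovation) and sequenced on an Illumina HiSeq. A culture protocol stands beside this, and whether the sorted cells were cultured is not stated. Per the submitters' processing notes, bcl2fastq 1.8.3, TopHat and Cufflinks were used with build mm10. For the last pair, the version is not given in the sources used here. The deposited values were FPKM per transcript as the authors estimated them, per the file headers from Cufflinks, for 63241 transcripts per library.

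Transcripts of at least 300 nt were assigned to genes by their ends, or by span overlap of at least 0.5, with GENCODE M21 and RefSeq GRCm38.p6 (86% of transcripts given a gene), and FPKM was summed per gene. Of the 24743 genes, the 12513 that reached 1 FPKM in 2 libraries or more entered limma 3.58.1 (R 4.3.3) as log2(FPKM + 1), with 1 mean per group, trend and 6 residual degrees of freedom. Calls needed a p under 0.05 after Benjamini-Hochberg adjustment over these genes. The groups share 1 estimate of spread. Only the limma fit was checked on simulated data, with most genes unchanged and the same spread of each gene in all groups. That check does not cover gene assignment, depth or the wider spread of the Sca-1+ luminal libraries. Groups came from the labels, which carry library serial numbers but no replicate numbers, so libraries were numbered in listed order. Depth was estimated from steps between low FPKM values among 5735 isolated transcripts. Of the 628 to 1069 low values above 0 in each library, 86.8% to 91.2% lay within 0.05 of a whole fragment. Depth and fragment length were chosen to bring these values nearest to whole fragments, so that share is no separate check. Summed genes do not keep such steps, so no count model was used.

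The ligands, the pathway and marker lists and the tests were chosen with earlier results of these data known. All 10 ligands are named. Of each pathway list up to 4 called genes with the largest difference per comparison, with relatives of the same family, could be named, and for each tested ligand the 3 genes of most like pattern, of which 1 is not reported here. Alternatives were another pseudocount, no filter, 2 other scalings, a fit on the compared groups only, leaving out each library, and, added after seeing the data, the use of 1 Sca-1+ luminal library and a block on runs of library serial numbers.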

Additional observations from a re-analysis of the deposited data

How the results depend on the processing

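Of 918 combinations of a tested ligand, a comparison and an alternative setting, 789 kept the direction and the side of the threshold, 71 lost a call, 38 gained one and 20 turned the direction. Of the ligands called higher in Sca-1+ against Sca-1- luminal libraries (8), 5 passed with quantile normalization. In a fit on the 2 groups only 5 passed, and on leaving out 1 library 5 to 7. With no filter 6 passed, with Wnt4 (limma BH-adjusted p = 0.0758), Wnt6 (0.062) and Wnt7b (0.06) lost. Wnt16, tested there, was 1 of the 6, at 0.0747 to 0.0952 FPKM in Sca-1+ and 0 in Sca-1- luminal libraries. Sca-1+ luminal replicate 3 as the only library of its gate was a setting chosen after seeing the data. For basal higher than Sca-1- luminal libraries (2), 1 passed with no filter, 4 in the 2-group fit, 0 to 4 on leaving out 1 library and 4 with that replicate alone. For basal lower than Sca-1+ luminal libraries (1), 0 passed with quantile normalization, 0 with median-of-ratios scaling, 0 in the 2-group fit, 0 to 3 on leaving out 1 library and 2 with that replicate alone, which also gave 1 higher. For stromal higher than Sca-1+ luminal libraries (2), 0 passed with a pseudocount of 0.1, 1 with no filter, 0 in the 2-group fit, 0 to 3 on leaving out 1 library and 5 with that replicate alone. Stromal lower than Sca-1+ luminal (1) gave 2 with no filter, of which 1 was Wnt16, and 1 to 2 on leaving out 1 library. On leaving out 1 library, stromal higher than basal (4) gave 1 to 6 and stromal lower than Sca-1- luminal (1) gave 0 to 1. The cause was not tested.

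Over all genes, calls on leaving out 1 library ranged over 2723 to 5222 for Sca-1+ against Sca-1- luminal, 3710 to 6469 for basal against Sca-1- luminal, 596 to 3583 for basal against Sca-1+ luminal, 1153 to 3607 for stromal against basal, 4367 to 7116 for stromal against Sca-1- luminal and 383 to 3060 for stromal against Sca-1+ luminal libraries. The 2-group fit gave 1267 for basal against Sca-1+ luminal and 639 for stromal against Sca-1+ luminal libraries. Sca-1+ luminal replicate 3 alone gave 2019 against Sca-1- luminal libraries and 3804 for stromal against it.

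Turned directions were in uncalled differences, except Wnt11 in basal against Sca-1+ luminal libraries, which was 1.84 with replicate 3 alone and -1.83 to 0.27 on leaving out 1 library. In the same comparison Wnt6 gave 0.11 with quantile normalization and 0.13 with replicate 3 alone, Wnt10a 0.06 and 0.17 in these settings and -0.76 to 0.02 on leaving out 1 library, Wnt9a 0.17 with quantile normalization and Wnt7b -1.06 to 0.09 on leaving out 1 library. On leaving out 1 library, basal against Sca-1- luminal libraries gave -0.43 to 0.01 for Wnt5b (0.02 with quantile normalization) and -0.27 to 0.40 for Wnt4, stromal against basal -0.85 to 0.44 for Wnt4, stromal against Sca-1- luminal -0.79 to 0.50 for Wnt4 (0.25 with the replicate block), and stromal against Sca-1+ luminal -0.00063 to 0.35 for Wnt9a.

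The share of higher calls among all calls in Sca-1+ against Sca-1- luminal libraries was 61.9%, against 46.3% after median-of-ratios scaling and 40.4% after quantile normalization, where the median of all genes moved to 0.02 and -0.07. In basal against Sca-1+ luminal libraries it was 22.2%, 47.6% and 53.1% (medians -0.29, -0.02 and 0.08), and in stromal against Sca-1+ luminal libraries 13.4%, 33.2% and 37.7% (medians -0.16, 0.07 and 0.06). A pseudocount of 0.1 raised the differences of low ligands, up to 5.69 for Wnt10a in stromal against Sca-1- luminal libraries. The labels give no replicate numbers and do not say that libraries pair. The titles carry serial numbers that fall into 3 runs, of which the third holds luminal libraries only, and a fit with these runs as a replicate block (4 residual degrees of freedom), added after seeing the data, kept the 8 ligands higher in Sca-1+ against Sca-1- luminal libraries and gave 1 in place of 2 for stromal higher than Sca-1+ luminal libraries (Wnt10a, limma BH-adjusted p = 0.0505). It gained Wnt5b in stromal against basal (limma BH-adjusted p = 0.0499) and against Sca-1- luminal libraries (0.0461). Deviations from the group means correlated at -0.06 to 0.39 within runs, over 0.1 in 12 of 13 pairs, and -0.06 in the third run. In groups of 2 libraries the deviations mirror each other, so the 13 pairs are not separate observations. The main fit did not use the runs, and these correlations do not settle whether libraries of a run share an effect. With 2 or 3 libraries per group, values of a few fragments, as for Wnt10a in Sca-1- luminal libraries, carry wide counting error.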

Other observations

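Of the other 9 Wnt ligands only Wnt10b, a relative of Wnt10a, reached the filter. Stromal libraries held 1.2 and 2.07 FPKM of Wnt10b, basal libraries 0.172 and 0.182 FPKM, Sca-1+ luminal libraries 0.834, 0.388 and 0.0275 FPKM and Sca-1- luminal libraries 0, 0.0284 and 0.0584 FPKM. It was higher in stromal than in basal (log2 difference 1.14, SE 0.28, limma BH-adjusted p = 0.0182), Sca-1+ luminal (0.92, SE 0.26, limma BH-adjusted p = 0.0448, and 1.34 with replicate 3 of that gate alone, limma BH-adjusted p = 0.00449) and Sca-1- luminal libraries (1.34, SE 0.26, limma BH-adjusted p = 0.0023). Wnt2b, a relative of Wnt2, was at 1.36 and 0.857 FPKM in stromal libraries and at most 0.25 FPKM elsewhere, and was not tested. Wnt3 and Wnt8a were listed at 0 in all 10 libraries.

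At the Wnt7b locus, AU022754 was at 0.0587 and 0 FPKM in stromal libraries, listed at 0 in all basal and Sca-1+ luminal libraries, and present in all 3 of the Sca-1- luminal gate (1.57, 1.84 and 2.32 FPKM). The Wnt7b transcript that spans 85535437 to 85580729 on chromosome 15 reached 2.41 FPKM in Sca-1- luminal replicate 1 and 2.08 FPKM in replicate 3, and was listed at 0 in the other 8 libraries. Wnt7b was lower in Sca-1- luminal libraries than in the other epithelial ones, and lowest in stromal libraries, at 0.347 and 0.585 FPKM. A link between the levels of these genes was not tested. With strand not stated, the assignment of fragments to Wnt7b or AU022754 is uncertain.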
